A study of Mus musculus with 6 samples.

Results

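Mouse genes of the unfolded protein response and of the heat shock response were followed in single-cell RNA libraries of brain cells. The set had 31 genes, taken by exact symbol from the 33696 genes of the deposited count tables: 18 genes of the endoplasmic reticulum (ER) response and 13 heat shock genes. The libraries fell into 3 groups of 2. KO bilirubin libraries were labelled as a TRPM2 Mg knockout given bilirubin, WT bilirubin libraries as wild type given bilirubin, and WT vehicle libraries as wild type given vehicle. The labels do not expand "Mg" and give no strain, allele, driver of a knockout, dose, age, sex or brain region, and the series title speaks of liver, stress and negative emotions. Nothing in the labels says that replicates came from separate animals, so a p-value here measures how far these libraries vary, and that variation may be technical.

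Cells answer misfolded protein in separate compartments with separate programmes. In the ER, the sensors IRE1, PERK and ATF6 act through the transcription factors XBP1, ATF4 and cleaved ATF6, which raise chaperones and folding enzymes and, through ATF4, genes of amino acid supply and cell death. In the cytosol and nucleus, heat shock factor 1 raises HSP70, HSP40 and small heat shock proteins, while the abundant HSP90 and HSC70 chaperones are made without stress, and a chaperonin pair folds proteins in mitochondria. In the brain, secretory epithelia such as the choroid plexus carry a large ER load, and inducible HSP70 is known to rise in vessels, microglia and other cells on heat, hypoxia and tissue handling.

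Trpm2, the gene named by the knockout label, was counted in microglia-like cells with 65 and 19 unique molecular identifiers (UMIs, which tag captured transcripts singly) in KO bilirubin, 91 and 66 in WT bilirubin, and 30 and 73 in WT vehicle. A tag from the 3' end lying outside a deleted part is still counted, so these counts do not check the knockout. The libraries held 24165563 to 63402551 UMIs, and 84952 of 95014 barcodes were kept, of which 790 occurred in more than 1 library. WT bilirubin replicate 1 stood apart from replicate 2. The median mitochondrial share of UMIs per kept cell was 5.58% and 3.79% in KO bilirubin, 7.22% and 0.655% in WT bilirubin, and 1.06% and 0.846% in WT vehicle. WT vehicle replicate 1 was the shallowest library per cell, with a median of 1149 UMIs per kept cell against 1571 to 2085.5 in the other libraries.

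Cells were given a class by marker genes, none of them a member of the set, and 20286 of the 84952 kept cells (23.9%) met the rule. Of these, 8216 (40.5%) held exactly 3 markers, the fewest allowed. The 9 classes with at least 20 cells in every library were microglia-like (5410 cells), T or NK cell-like (920), endothelial-like (2542), mural-like (332), fibroblast-like (402), choroid plexus-like (5595), ependymal-like (812), astrocyte-like (1664) and oligodendrocyte-like cells (992). Between 0 and 6 of the 10 leading genes of a class were its own markers, the 0 being that of astrocyte-like cells, and 0 were markers of another class. Levels are given in CPM, the counts per 1000000: UMIs summed over the cells of a class in a library and, for single genes, scaled to the total adjusted by edgeR's TMM factors. UMIs from the 3' end are not scaled by transcript length, so levels are compared between classes and groups, not between genes.

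Heat shock UMIs outnumbered ER UMIs in every class and library, but by very different margins. Over the 6 libraries, the log2 ratio of summed ER to summed heat shock UMIs was lowest in ependymal-like cells, at -1.97 ± 0.23, and endothelial-like cells, at -1.86 ± 0.24 (SD, n = 6). It was highest in choroid plexus-like cells, at -0.68 ± 0.36, with fibroblast-like cells at -0.83 ± 0.11, microglia-like cells at -0.90 ± 0.29 and astrocyte-like cells at -0.93 ± 0.37. Oligodendrocyte-like cells (-1.72 ± 0.10), T or NK cell-like cells (-1.65 ± 0.08) and mural-like cells (-1.25 ± 0.28) lay between. Neighbours in this order did not differ beyond their spread, except that mural-like cells lay above T or NK cell-like cells in 6 of 6 libraries, with overlapping ranges. Each of the 4 lowest classes lay outside the range of fibroblast-like cells, which ran from -0.96 to -0.72. No test was made of this ratio, since it is a score over the members.

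**Figure D1:**
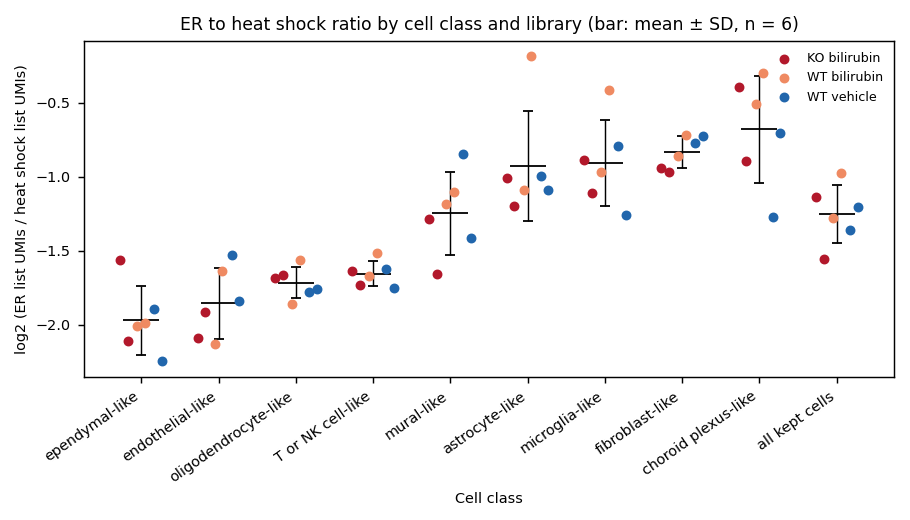
The log2 ratio of summed ER to summed heat shock UMIs (vertical axis) is plotted for each cell class and for all kept cells, with 1 point per library coloured by group, and the bar giving the mean ± SD over 6 libraries. The classes run from ependymal-like cells at -1.97 to choroid plexus-like cells at -0.68, and the groups overlap in all kept cells.

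The sums behind the ratio differed in size. Sums over a list are given as plain CPM, without the TMM factor. Ependymal-like cells held 2216 ± 756 CPM of ER and 8519 ± 1936 CPM of heat shock genes, whereas choroid plexus-like cells held 2526 ± 762 CPM of ER and 3905 ± 721 CPM of heat shock genes (SD, n = 6). Microglia-like cells were high in both, at 2810 ± 579 and 5284 ± 1157 CPM. Hsp90b1 and Hspa5 made up 32.5% and 18.5% of all ER UMIs, and Hsp90ab1, Hspa8 and Hsp90aa1 made up 29.0%, 17.1% and 14.3% of heat shock UMIs, so the sums lean on these genes.

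Each class was then set against the mean of the other 8 with edgeR's quasi-likelihood test, with the library as a block. Of the 31 members, 27 passed the filter on low counts, and 146 of their 243 differences passed the adjusted p threshold of 0.05 by the Benjamini-Hochberg method. Those were 32 higher and 40 lower differences of ER genes and 33 higher and 41 lower ones of heat shock genes. Trib3, Asns, Chac1 and Sesn2, all ATF4 targets, did not pass the filter, and Hsf1 differed in 0 of the 9 classes. In a fit with this many libraries and classes many genes differ. Of all 11532 genes tested, 4.96% to 33.5% were higher and 4.49% to 38.7% lower, depending on the class. The totals are thus not read as a result about the members, and the share of all genes is given with each class below.

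**Figure D2:**
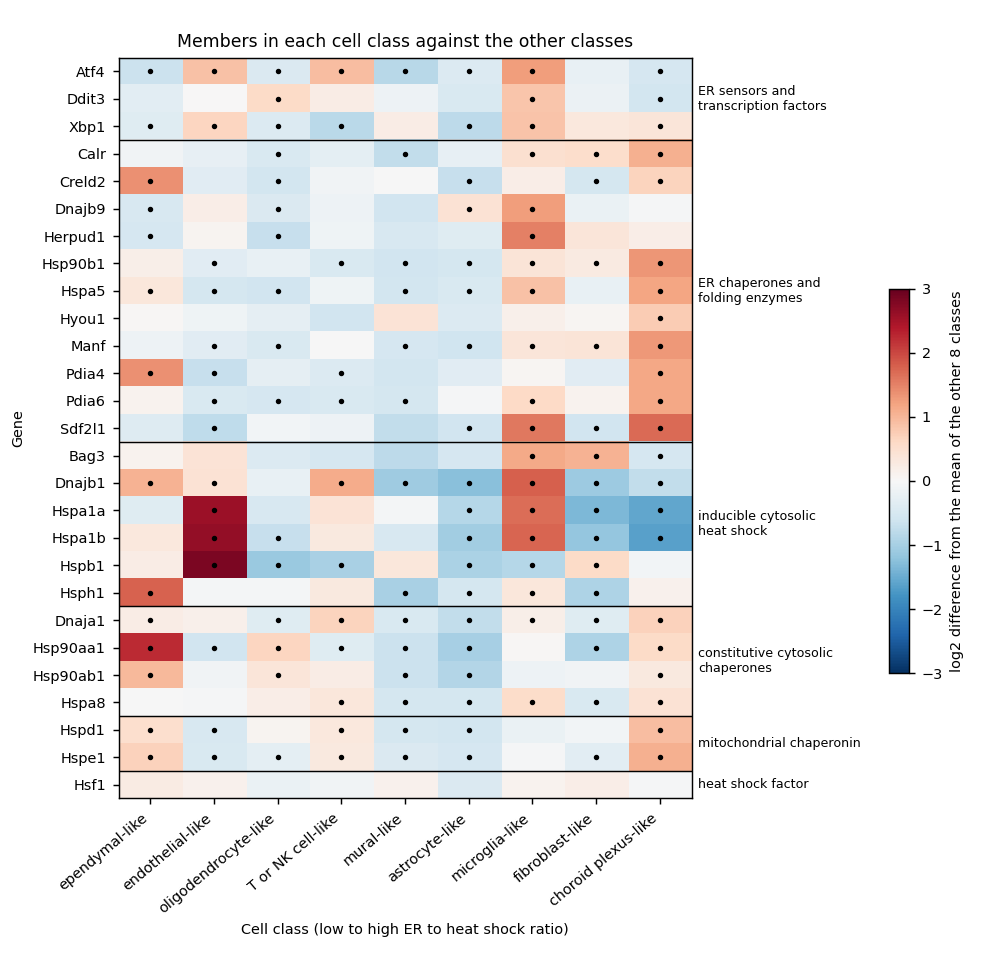
Rows are the 27 members tested, grouped by role, and columns are the 9 cell classes in the order of their ER to heat shock ratio. Colour gives the log2 difference from the mean of the other 8 classes, and a dot marks an adjusted p under 0.05. ER chaperones are red in the choroid plexus-like and microglia-like columns, Hspa1a, Hspa1b and Hspb1 reach 2.58 to 2.83 in the endothelial-like column, and Hsp90aa1 reaches 2.24 in the ependymal-like column.

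Choroid plexus-like cells were high in ER chaperones and low in inducible HSP70. Of 14 ER members, 10 were higher and 2 lower than in the other classes, where 33.5% of all genes were higher and 38.7% lower. The median difference of the ER members was 0.91, against -0.11 for all genes. The 10 were Sdf2l1, an ER co-chaperone (log2 difference 1.71, SE 0.11), Hsp90b1, the ER form of HSP90 (1.33, SE 0.09), Manf, a secreted ER stress protein (1.29, SE 0.10), Hspa5, the ER form of HSP70 also called BiP (1.18, SE 0.10), the disulfide isomerases Pdia6 (1.17) and Pdia4 (1.16), the lectin-like chaperone Calr (1.06), the nucleotide exchange factor Hyou1 (0.77), Creld2 (0.66) and Xbp1 (0.35). The 2 lower ones were the transcription factors Atf4 (-0.50) and Ddit3 (-0.55), the second known as CHOP.

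These chaperones are textbook targets of the ER stress response element, and the letters of that element were sought in the 250 bases before the start of each gene in RefSeq's promoter table (build GRCm38.p6). The table held 25 of the 31 members; Hyou1, Manf, Hspa8, Hsp90aa1, Hsp90ab1 and Hsf1 had no entry. The letters CCAAT, 9 bases of any kind and CCACG, in this order and on either strand, stood before 5 members, all of them ER chaperones or folding genes: Hspa5, Hsp90b1, Calr, Creld2 and Pdia6. They occur in 0.113% of the 32851 promoter windows in the table. The 5 windows are shown because all 5 genes were higher in choroid plexus-like cells, with the element in capitals, each written 5′ to 3′ on its gene's strand. They lie at chr2:34771840-34772089 (plus strand), chr10:86705445-86705694 (minus), chr8:84846932-84847181 (minus), chr15:88819396-88819645 (plus) and chr12:17266339-17266588 (plus) in the order of the lines.
Hspa5: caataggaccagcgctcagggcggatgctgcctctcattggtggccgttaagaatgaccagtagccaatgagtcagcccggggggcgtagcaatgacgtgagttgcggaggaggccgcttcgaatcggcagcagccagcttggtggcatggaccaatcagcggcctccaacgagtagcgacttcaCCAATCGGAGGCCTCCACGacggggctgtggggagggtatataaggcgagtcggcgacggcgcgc
Hsp90b1: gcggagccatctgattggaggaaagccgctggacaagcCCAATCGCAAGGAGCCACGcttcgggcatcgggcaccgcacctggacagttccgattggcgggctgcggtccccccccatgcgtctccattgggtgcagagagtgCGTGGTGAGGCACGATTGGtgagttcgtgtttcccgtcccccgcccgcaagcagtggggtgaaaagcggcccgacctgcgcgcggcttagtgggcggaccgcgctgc
Calr: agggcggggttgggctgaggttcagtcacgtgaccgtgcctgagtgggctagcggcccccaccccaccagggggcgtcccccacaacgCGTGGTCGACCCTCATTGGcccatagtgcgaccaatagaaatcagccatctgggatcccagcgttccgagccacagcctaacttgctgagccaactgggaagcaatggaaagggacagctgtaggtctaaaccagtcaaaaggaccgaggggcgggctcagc
Creld2: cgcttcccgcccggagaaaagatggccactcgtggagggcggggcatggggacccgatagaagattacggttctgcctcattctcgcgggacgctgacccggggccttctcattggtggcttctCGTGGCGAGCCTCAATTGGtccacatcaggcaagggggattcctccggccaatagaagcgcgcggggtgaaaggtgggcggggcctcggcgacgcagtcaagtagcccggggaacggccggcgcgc
Pdia6: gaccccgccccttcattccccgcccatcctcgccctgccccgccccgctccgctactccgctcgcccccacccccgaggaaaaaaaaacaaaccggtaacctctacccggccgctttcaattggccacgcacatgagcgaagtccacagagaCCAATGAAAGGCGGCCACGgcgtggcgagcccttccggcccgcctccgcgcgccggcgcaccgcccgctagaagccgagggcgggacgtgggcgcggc
Hsp90b1 holds the letters in a pair of places. In Calr, in Creld2 and in the copy of Hsp90b1 nearer the gene, the letters read on the opposite strand. A second motif, TGACGTGG, shares the letters CCACG with this element when read on the other strand; it stood before 0 members and in 0.563% of all windows. The ATF4 letters TGATGNAAT stood before 0 members and in 0.816% of windows. Sdf2l1, Pdia4 and Xbp1 were also higher in choroid plexus-like cells and held 0 matches to the ER stress response element. Of the genes with that element, Hspa5, Hsp90b1, Calr and Pdia6 were higher in microglia-like cells too. All the motif hits are matches of letters and say nothing of binding in these cells.

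The level of Hspa5 in choroid plexus-like cells was 1389 and 628 CPM in KO bilirubin, 777 and 792 CPM in WT bilirubin, and 225 and 778 CPM in WT vehicle. Hsp90b1 had 1726 and 1132, 1637 and 1754, and 521 and 1705 CPM in the same libraries. WT vehicle replicate 1 was thus the lowest library for both genes, far below its own replicate. Hsp90b1 was higher in choroid plexus-like than in microglia-like cells in 6 of 6 libraries (1413 ± 495 against 752 ± 175 CPM), although the ranges overlapped through that library.

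Of the 13 heat shock members, choroid plexus-like cells had 6 higher and 4 lower. The lower ones were the inducible HSP70 pair Hspa1a (-1.56, SE 0.20) and Hspa1b (-1.62, SE 0.20), the HSP40 co-chaperone Dnajb1 (-0.74) and the HSP70 co-chaperone Bag3 (-0.50). The higher ones were Hspe1 and Hspd1, the small and large subunits of the mitochondrial chaperonin (1.06 and 0.94), the HSP40 gene Dnaja1 (0.68), Hsp90aa1 (0.57), Hspa8 (0.44) and Hsp90ab1 (0.30). Of the other inducible members, Hsph1 (0.14, SE 0.11) and Hspb1 (-0.08, SE 0.21) did not pass.

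Hspd1 and Hspe1 lie head to head and share a start region. The letters of a 3-unit heat shock element, in which GAA and TTC alternate with 2 bases of any kind between units, beginning with either and on either strand, stood before these 2 members and in 0.466% of all windows. The stretch before Hspe1, at chr1:55087898-55088147 on the plus strand, is shown with overlapping copies of both forms in capitals, because the pair moved together across classes.
Hspe1: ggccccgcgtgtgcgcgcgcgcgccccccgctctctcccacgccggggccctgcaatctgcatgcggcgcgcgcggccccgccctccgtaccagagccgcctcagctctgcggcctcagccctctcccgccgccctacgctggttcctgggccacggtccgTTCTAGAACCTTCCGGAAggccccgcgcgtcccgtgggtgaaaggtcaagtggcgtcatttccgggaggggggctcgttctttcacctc
The table has 2 windows for Hspd1, and the one that overlaps this stretch holds the same letters on the minus strand, while the other holds none. No such letters stood before Hspa1a, Hspa1b, Hspb1 or Dnajb1 in these windows, and nothing about heat shock factor at those genes follows from that. Hspe1 averaged 914 ± 232 CPM in choroid plexus-like and 753 ± 305 CPM in ependymal-like cells, and 357 ± 128 CPM in astrocyte-like cells, its lowest class (SD, n = 6). Hspd1 averaged 255 ± 78.0, 195 ± 47.6 and 101 ± 19.5 CPM in the same classes, so the pair kept the same order there.

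Microglia-like cells were high in members of both lists. Of 14 ER members, 11 were higher and 0 lower, and of 13 heat shock members 7 were higher and 1 lower, where 27.0% of all genes were higher and 33.6% lower. Median differences were 0.71 for ER and 0.18 for heat shock members, against -0.11 for all genes. The ER genes that led were Sdf2l1 (1.59, SE 0.11), Herpud1, which works in ER-associated degradation (1.5, SE 0.11), Atf4 (1.25, SE 0.12) and the ER HSP40 gene Dnajb9 (1.25, SE 0.11). Hspa5 (0.88), Xbp1 (0.86) and Ddit3 (0.83) were higher too.

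Herpud1 set these cells apart most clearly. Microglia-like cells had 171 and 178 CPM in KO bilirubin, 212 and 248 CPM in WT bilirubin, and 164 and 170 CPM in WT vehicle. Fibroblast-like cells, the next class, had 112 and 72.2, 107 and 105, and 55.1 and 81.9 CPM in the same libraries, so the classes did not overlap. Across classes Herpud1 did not follow Hspa5: in choroid plexus-like cells its difference from the other classes was 0.19 (SE 0.12, edgeR adjusted p = 0.15).

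Dnajb1 (1.79, SE 0.13), Hspa1b (1.74, SE 0.15), Hspa1a (1.67, SE 0.15) and Bag3 (1.15, SE 0.17) led the heat shock members in microglia-like cells. Hspb1, a small heat shock protein also called HSP27, was lower there (-0.85, SE 0.22). Dnajb1 had 285 and 349 CPM in KO bilirubin, 368 and 305 CPM in WT bilirubin, and 228 and 478 CPM in WT vehicle microglia-like cells, and these groups overlapped. In astrocyte-like cells, its lowest class, the values were 45.3 and 98.9, 74.2 and 29.6, and 27.6 and 62.7 CPM, all below every microglia-like value.

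Endothelial-like cells had the highest levels of Hspb1, Hspa1b and Hspa1a. Their differences from the other classes were 2.83 (SE 0.17), 2.65 (SE 0.15) and 2.58 (SE 0.15), the largest of any member in any class. Hspb1 had 2138 and 1392 CPM in KO bilirubin, 1713 and 1235 CPM in WT bilirubin, and 356 and 764 CPM in WT vehicle endothelial-like cells. In fibroblast-like cells, second for this gene, the values were 374 and 439, 393 and 298, and 121 and 255 CPM. Endothelial-like cells were thus higher in 6 of 6 libraries, although the lowest endothelial-like library, WT vehicle replicate 1, lay within the fibroblast-like range.

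Hspa1b had 492 and 595 CPM in KO bilirubin, 910 and 470 CPM in WT bilirubin, and 274 and 434 CPM in WT vehicle endothelial-like cells. In choroid plexus-like cells, its lowest class, it had 36.3 and 106, 48.3 and 7.87, and 22.4 and 41.4 CPM, with no overlap. Hspa1a and Hspa1b are near-identical copies whose reads the counting may divide in either way. Their mean levels lay within a ratio of 0.654 to 1.26 in each class, so neither can be told from the other with certainty.

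Most of the other members did not share this rise. In endothelial-like cells 4 of 13 heat shock members were higher and 3 lower, and 2 of 14 ER members were higher and 6 lower, where 17.2% of all genes were higher and 13% lower. The fourth heat shock gene was Dnajb1 (0.43, SE 0.16), and Hsp90aa1 (-0.58), Hspd1 (-0.47) and Hspe1 (-0.45) were lower. The ER genes Atf4 (0.87, SE 0.13) and Xbp1 (0.64, SE 0.13) were higher, while Sdf2l1 (-0.77), Pdia4 (-0.68), Hspa5 (-0.52), Pdia6 (-0.46), Hsp90b1 (-0.34) and Manf (-0.34) were lower. The other 6 ER members, among them Ddit3 (0.002), Herpud1 (0.09) and Dnajb9 (0.21), did not pass.

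**Figure D3:**
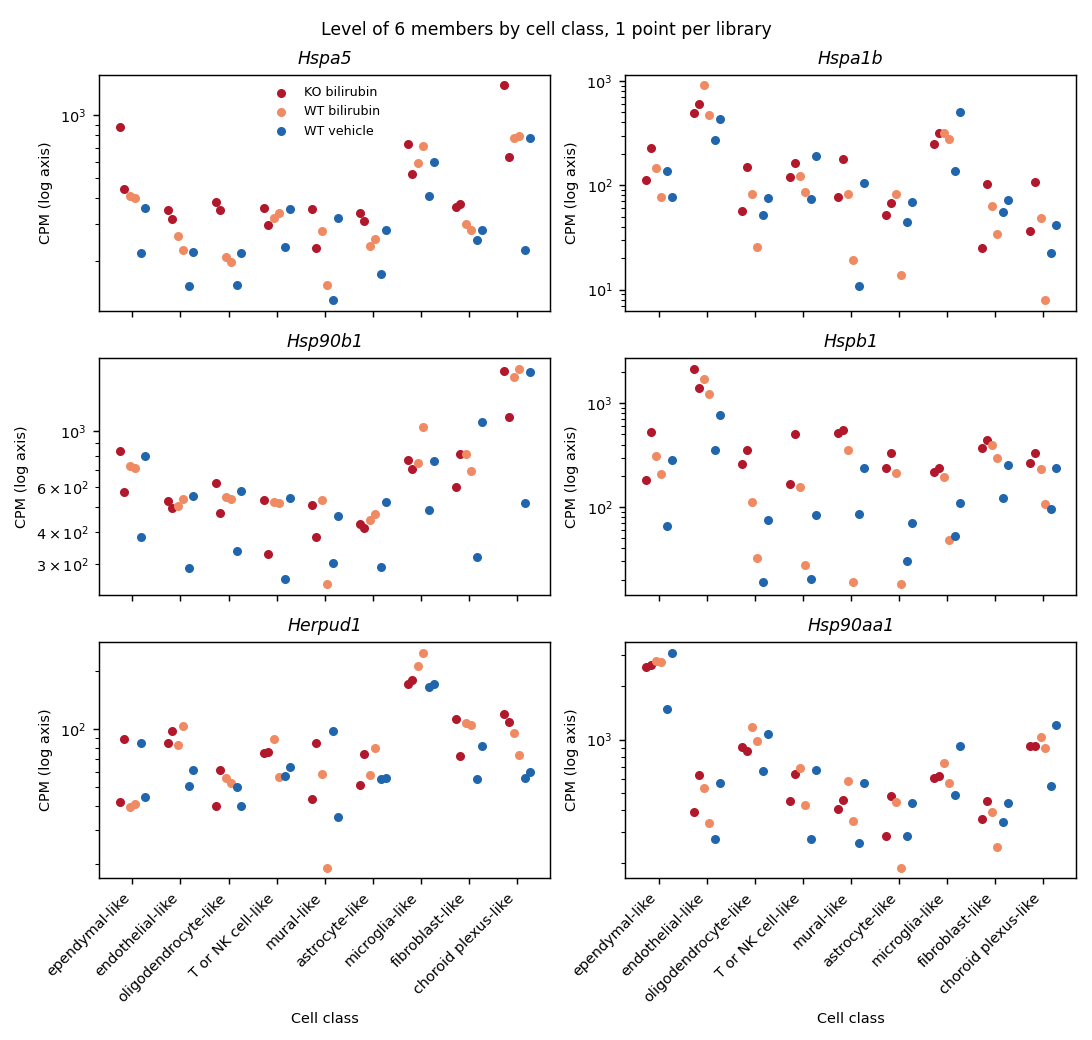
The level of 6 members in CPM (vertical log axes) is plotted by cell class with 1 point per library, coloured by group. By mean level, Hspb1 and Hspa1b peak in endothelial-like cells, Hspa5 and Hsp90b1 in choroid plexus-like cells, Herpud1 in microglia-like cells and Hsp90aa1 in ependymal-like cells. For Hspb1, Hspa1b, Hspa5 and Hsp90b1 the libraries of the highest class overlap with those of the next.

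Shares of cells with a UMI gave the same order for inducible HSP70 when each cell was thinned to 1000 UMIs. An Hspa1a UMI was found in 33.0% ± 9.32 of endothelial-like cells, 18.9% ± 5.08 of microglia-like cells and 2.86% ± 1.51 of choroid plexus-like cells (SD, n = 6 libraries). Without thinning the shares were 52.6%, 35.8% and 12.8%. Median depths ran from 1475 to 4552, 1951.5 to 3769, and 2170.5 to 7935 UMIs per cell in these classes, so the class with the smallest share was not the shallowest, and 132, 166 and 49 shallower cells were left out. For Hspb1 the thinned share was 58.1% ± 19.1 in endothelial-like cells and 9.32% ± 6.87 in T or NK cell-like cells, where the share was smallest. For Hspa5 it was 41.3% ± 6.52 in microglia-like, 39.0% ± 12.8 in choroid plexus-like and 21.1% ± 6.45 in oligodendrocyte-like cells, where the share was smallest, and no order between the first 2 is read from it, since the CPM ran the other way. No class is known to lack these genes, so the lowest class is the nearest measure here of what free RNA could give.

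Immediate-early genes, which rise when tissue is dissociated, moved with inducible HSP70 in some classes and not in others. All 17 genes of an immediate-early and dissociation list (with Fos, Jun and Egr family members) were higher in endothelial-like cells, and 16 of 17 in microglia-like cells. All 17 were lower in choroid plexus-like and 16 of 17 in astrocyte-like cells. In ependymal-like cells 10 were higher and 2 lower, where neither HSP70 gene passed, and in fibroblast-like cells 2 were higher and 5 lower, where both HSP70 genes were lower. Mural-like cells had 0 higher and 7 lower, oligodendrocyte-like cells 1 and 14, and T or NK cell-like cells 7 and 3. Of all genes, 17.2% were higher in endothelial-like and 27.0% in microglia-like cells, and 38.7% lower in choroid plexus-like and 22.0% in astrocyte-like cells. The higher and lower shares of all genes were 23.4% and 20.3% in ependymal-like and 17.3% and 21.6% in fibroblast-like cells. They were 4.96% and 4.49% in mural-like, 18.0% and 19.8% in oligodendrocyte-like, and 17.8% and 16.5% in T or NK cell-like cells. The summed level of the immediate-early genes, as plain CPM, ran from 3923 to 11040 CPM in endothelial-like, 7719 to 14708 CPM in microglia-like and 358 to 1753 CPM in choroid plexus-like libraries. Their part in the HSP70 difference was not tested.

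Ependymal-like cells were set apart by cytosolic HSP90. Hsp90aa1 encodes a form of cytosolic HSP90 and was grouped here with the constitutive chaperones. It had 2572 and 2648 CPM in KO bilirubin, 2778 and 2734 CPM in WT bilirubin, and 1484 and 3106 CPM in WT vehicle ependymal-like cells. In oligodendrocyte-like cells, the next class, it had 907 and 867, 1176 and 984, and 661 and 1078 CPM. The classes did not overlap, and the difference from the other classes was 2.24 (SE 0.08).

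With Hsp90aa1 rose Hsph1, an HSP110 nucleotide exchange factor (1.76, SE 0.11), Dnajb1 (1.03, SE 0.15), Hsp90ab1 (0.98, SE 0.09), Hspe1 (0.69), Hspd1 (0.51) and Dnaja1 (0.22), making 7 of 13 heat shock members higher and 0 lower, where 23.4% of all genes were higher and 20.3% lower. Inducible HSP70 did not pass there (Hspa1a -0.35, SE 0.21; Hspa1b 0.32, SE 0.19). Hsph1 averaged 231 ± 63.9 CPM in ependymal-like cells and 96.8 ± 27.8 CPM in microglia-like cells, the next class, and the libraries did not overlap.

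Of the ER members, Pdia4 (1.38, SE 0.12), Creld2 (1.37, SE 0.13) and Hspa5 (0.35) were higher in ependymal-like cells, and Atf4, Herpud1, Dnajb9 and Xbp1 were lower, by log2 differences from -0.64 to -0.37. Pdia4 averaged 185 ± 59.1 CPM in ependymal-like and 165 ± 75.5 CPM in choroid plexus-like cells, which overlapped. ER folding enzymes thus did not move as a block: Pdia6, of the same family as Pdia4, had a difference of 0.12 (SE 0.13) in ependymal-like cells.

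Astrocyte-like cells were low in both programmes. Of 13 heat shock members 0 were higher and 11 lower, and of 14 ER members 1 was higher and 7 lower, where 20.8% of all genes were higher and 22.0% lower. The heat shock median was -0.73 against -0.07 for all genes. Dnajb1 (-1.25), Hspa1b (-1.05), Hsp90aa1 (-0.99) and Hspb1 (-0.94) led the lower ones, and Dnajb9 (0.42, SE 0.14) was the ER member that was higher. Mural-like cells, the smallest class, had 0 higher and 8 lower heat shock members and 0 higher and 6 lower ER members, where 4.96% of all genes were higher and 4.49% lower. Their 14 lower calls were 9 with median-of-ratios scaling, and Atf4 in these cells was lost in 8 of 12 other settings and Hspd1 in 3.

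Oligodendrocyte-like cells had 1 higher and 9 lower ER members, where 18.0% of all genes were higher and 19.8% lower. The higher one was Ddit3 (0.58, SE 0.18), and Herpud1 (-0.68) and Hspa5 (-0.57) led the lower ones. Their heat shock members split, with Hsp90aa1 (0.64, SE 0.10) and Hsp90ab1 (0.35, SE 0.10) higher and Hspb1 (-1.11), Hspa1b (-0.69), Dnaja1 (-0.36) and Hspe1 (-0.28) lower. Fibroblast-like cells had 8 lower heat shock members, led by Hspa1a (-1.34), Hspa1b (-1.17) and Dnajb1 (-1.09), and 2 higher ones, Bag3 (1.05, SE 0.26) and Hspb1 (0.57, SE 0.22). Of the ER members, Calr, Manf and Hsp90b1 were higher and Sdf2l1 and Creld2 lower in fibroblast-like cells, where 17.3% of all genes were higher and 21.6% lower.

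T or NK cell-like cells had Atf4 as their 1 higher ER member (0.92, SE 0.15), against 4 lower ones, Xbp1 (-0.81), Hsp90b1, Pdia6 and Pdia4. Dnajb1 (1.11, SE 0.16), Dnaja1 (0.66), Hspa8 (0.35), Hspd1 (0.31) and Hspe1 (0.28) were higher among the heat shock members, and Hspb1 (-0.97) and Hsp90aa1 (-0.36) lower, where 17.8% of all genes were higher and 16.5% lower. The transcripts of Atf4 and Xbp1, which act on separate arms of the ER programme, thus went in opposite directions in these cells. They did so in choroid plexus-like cells too, where Xbp1 was higher and Atf4 lower. Both were higher in microglia-like and endothelial-like cells, and both lower in ependymal-like, astrocyte-like and oligodendrocyte-like cells. UMIs give transcript levels only, and the activity of either arm was not measured.

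The transcription factors stood at low levels. Xbp1 averaged 94 ± 17 CPM in microglia-like and 34.3 ± 15.1 CPM in astrocyte-like cells, its highest and lowest classes, and Atf4 averaged 115 ± 27.7 CPM in microglia-like and 33.7 ± 29.4 CPM in mural-like cells (SD, n = 6). Ddit3 averaged 37.0 ± 10.4 CPM in microglia-like and 15.7 ± 6.34 CPM in choroid plexus-like cells. The symbol Ddit3 has a second row in the gene tables, which held 0 UMIs. Hsf1, which encodes heat shock factor 1, ran only from 12.1 ± 4.78 CPM in oligodendrocyte-like to 17 ± 3.93 CPM in ependymal-like cells, within its spread.

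The ATF4 targets, apart from Ddit3, were near the limit of detection. Over all kept cells, Asns, which makes asparagine, held 1104 UMIs in the 6 libraries together, the stress sensor Sesn2 931, the pseudokinase Trib3 195 and the glutathione-degrading Chac1 113. Asns reached 8.09 ± 2.17 CPM in endothelial-like cells, its highest class, and Trib3 3.72 ± 2.53 CPM in the same class.

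Other genes of the same pathways, from lists chosen beside the members, gave a measure of how far the class pattern reaches. Among 24 other unfolded protein response genes tested, 13 were higher and 4 lower in microglia-like cells and 12 higher and 7 lower in choroid plexus-like cells. In endothelial-like cells 1 was higher and 5 lower. Among 29 other heat shock and co-chaperone genes, 22 were higher and 2 lower in choroid plexus-like cells, 16 higher and 1 lower in ependymal-like cells, 3 higher and 7 lower in endothelial-like cells, and 0 higher and 15 lower in astrocyte-like cells. In microglia-like cells 3 were higher and 13 lower, so this list did not follow the members there. Among 15 other ATF4 targets, 7 were higher and 2 lower in astrocyte-like cells (20.8% and 22.0% of all genes), 7 higher and 5 lower in oligodendrocyte-like cells (18.0% and 19.8%), and 4 higher and 5 lower in microglia-like cells (27.0% and 33.6%).

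Between the groups, 0 members passed in any class. The test was edgeR's quasi-likelihood test per class with all 6 libraries in 1 fit, and the p-values were adjusted by the Benjamini-Hochberg method over all genes of the class. Of 232 member and class pairs, 0 passed for KO bilirubin against WT bilirubin, where 0.00642% of all gene and class pairs passed, 0 for KO bilirubin against WT vehicle (0.0244%), and 0 for WT bilirubin against WT vehicle (0.366%). At an unadjusted p under 0.05 the counts were 13, 31 and 8, all of them higher in the first-named group, beside 3.66%, 5.42% and 10.2% of all pairs. Without WT bilirubin replicate 1, 7 pairs passed for KO bilirubin against WT bilirubin: Hspb1 in microglia-like, astrocyte-like and oligodendrocyte-like cells, and Hspa1a and Hspa1b in choroid plexus-like and astrocyte-like cells. In that fit 1.32% of all gene and class pairs passed. Without KO bilirubin replicate 1, Hspa1a and Hspa1b in choroid plexus-like cells passed in that comparison, where 0.285% of all pairs did. For WT bilirubin against WT vehicle, Hspa1b passed in choroid plexus-like and astrocyte-like cells without WT bilirubin replicate 1, where 2.89% of all pairs did. In choroid plexus-like cells this Hspa1b call was a lower one, since WT bilirubin replicate 2 lay below both WT vehicle libraries. In astrocyte-like cells the sum of the inducible heat shock members was 133 CPM in WT bilirubin replicate 2. It was 199 and 368 CPM in WT vehicle, and 577 CPM in WT bilirubin replicate 1, which that fit left out. The sum was thus below WT vehicle in 1 WT bilirubin library and above it in the other. It does not give the direction of the Hspa1b call. In each of these fits 1 group has 1 library, which is assumed to vary like the other groups. Each pair of these comparisons shares the libraries of 1 group, so they are not independent of each other.

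Over all kept cells of each library, where fewer cells of a type and less RNA per cell cannot be told apart, 0 of 31 members passed in each comparison, where 0.00518%, 0.0% and 0.00518% of 19323 genes passed in the same order. The Wald test of DESeq2 called 0, 1 (Hspb1) and 0 members, for which the share of all genes is not given. At an unadjusted p under 0.05 there were 0 members for KO bilirubin against WT bilirubin (3.53% of all genes), 3 for KO bilirubin against WT vehicle (6.75%), all higher, and 2 for WT bilirubin against WT vehicle (11.2%), both lower. The median log2 fold change of the 31 members was 0.29, 0.53 and 0.28, against 0.03, 0.07 and 0.05 for all genes.

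**Figure D4:**
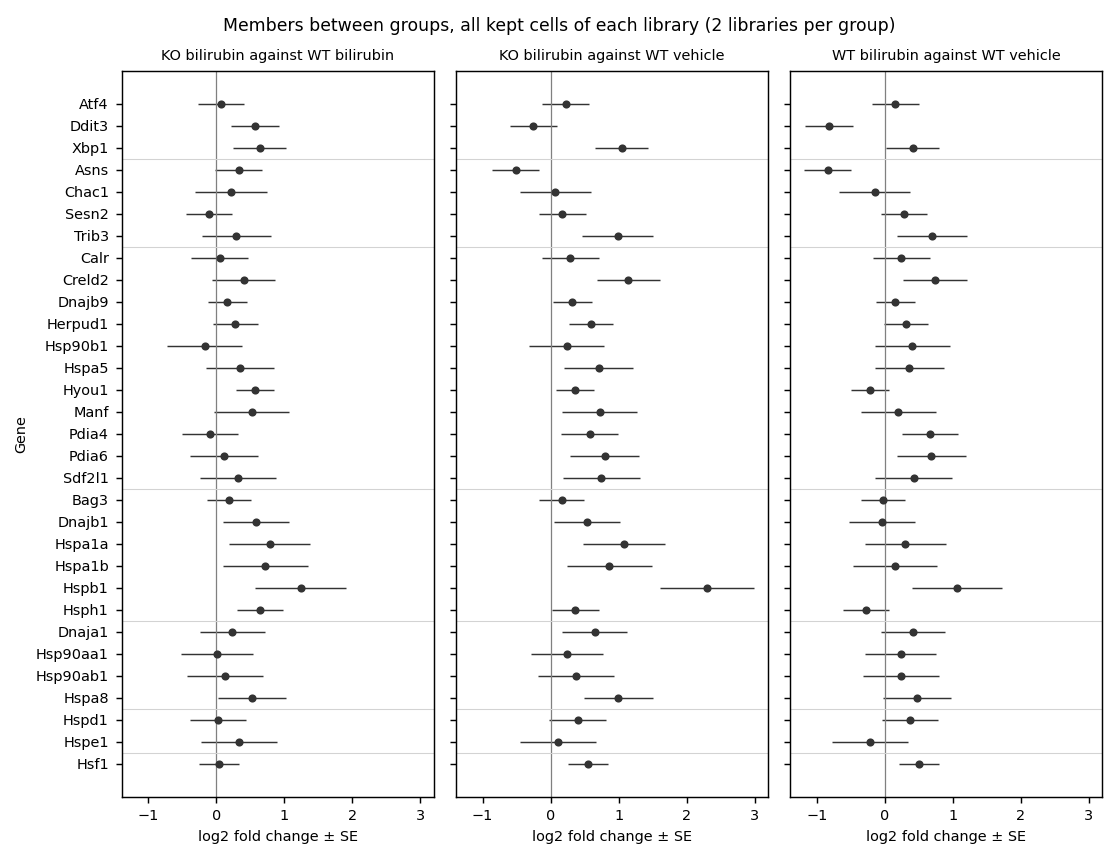
The log2 fold change (horizontal axis) of each of the 31 members over all kept cells is plotted with its standard error for 3 comparisons of 2 against 2 libraries, with the genes grouped by role. Hspb1 lies farthest to the right, at 2.30 for KO bilirubin against WT vehicle, and no point passed the adjusted threshold.

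Hspb1 had the largest differences between groups. Over all kept cells it had 465 and 632 CPM in KO bilirubin, 356 and 108 CPM in WT bilirubin, and 55.6 and 167 CPM in WT vehicle. The KO bilirubin libraries were above all others, and WT bilirubin overlapped with WT vehicle. The log2 fold change was 1.24 (SE 0.67, edgeR adjusted p = 1) for KO bilirubin against WT bilirubin, 2.30 (SE 0.69, adjusted p = 0.708) for KO bilirubin against WT vehicle, and 1.06 (SE 0.67, adjusted p = 0.578) for WT bilirubin against WT vehicle. The 3 libraries with the most Hspb1 were the 3 with a median mitochondrial share above 3%. With that split as a term, the log2 fold changes were 0.62, 0.58 and -0.05. Both KO bilirubin libraries lie above the split and both WT vehicle libraries below it. The term thus rests on the WT bilirubin pair alone, and group and mitochondrial share cannot be told apart. The same 3 libraries also had the largest shares of endothelial-like cells, the class with the most Hspb1. These cells were 5.80% and 5.59% of kept cells in KO bilirubin, 4.71% and 1.83% in WT bilirubin, and 0.828% and 1.45% in WT vehicle. The part of cell make-up in the Hspb1 differences was not tested.

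The fold change of Hspb1 was above 0 in all 9 classes in each comparison. In oligodendrocyte-like cells it had 261 and 351 CPM in KO bilirubin, 111 and 32.6 CPM in WT bilirubin, and 18.9 and 74.8 CPM in WT vehicle. That gave log2 fold changes of 2.11 (SE 0.53, edgeR adjusted p = 0.144) for KO bilirubin against WT bilirubin and 2.76 (SE 0.56, adjusted p = 0.102) for KO bilirubin against WT vehicle, the closest to the threshold of any member. Both passed with no filter on low counts, with only the 4 libraries compared and without WT vehicle replicate 2. In astrocyte-like cells it had 238 and 329, 215 and 18.2, and 30.3 and 69.8 CPM in the same groups, so WT bilirubin replicate 1 again lay with KO bilirubin.

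In endothelial-like cells, where its level was highest, both bilirubin groups lay above WT vehicle for Hspb1. The log2 fold changes were 0.24 (SE 0.56, edgeR adjusted p = 1) for KO bilirubin against WT bilirubin, 1.54 (SE 0.57, adjusted p = 0.318) for KO bilirubin against WT vehicle and 1.30 (SE 0.57, adjusted p = 0.341) for WT bilirubin against WT vehicle. None passed. Inducible HSP70 did not follow in each class: the fold change of Hspa1b for KO bilirubin against WT vehicle ran from -0.50 to 1.08 over the 9 classes and was above 0 in 7.

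Xbp1 and Creld2 had the smallest p among ER members for KO bilirubin against WT vehicle. Xbp1 had 72.1 and 78.0 CPM in KO bilirubin, 63.9 and 32.6 CPM in WT bilirubin, and 29.9 and 42.9 CPM in WT vehicle over all kept cells. Creld2 had 45.9 and 44.7, 46.8 and 21.5, and 12.2 and 28.8 CPM. KO bilirubin did not overlap with WT vehicle in either gene, and the log2 fold changes were 1.04 (SE 0.39, edgeR adjusted p = 0.708) for Xbp1 and 1.14 (SE 0.47, adjusted p = 0.708) for Creld2. With the mitochondrial split as a term they were 0.07 and 0.02. Both KO bilirubin libraries lie above that split and both WT vehicle libraries below it, so the term rests on the WT bilirubin pair alone. Group and mitochondrial share cannot be told apart here. Hspa8, the constitutive cytosolic HSP70, had 1056 and 1030 CPM in KO bilirubin, 847 and 607 CPM in WT bilirubin, and 390 and 655 CPM in WT vehicle (log2 fold change against WT vehicle 1.00, SE 0.50, adjusted p = 0.708).

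For KO bilirubin against WT bilirubin the smallest p values among the members were those of Hyou1 and Hsph1, both of them nucleotide exchange factors, followed by Hspb1 and Xbp1 (0.64, SE 0.39). Hyou1 had 25.2 and 25.8 CPM in KO bilirubin, 15.7 and 18.7 CPM in WT bilirubin, and 16.9 and 22.9 CPM in WT vehicle (0.57, SE 0.28, edgeR adjusted p = 1). Hsph1 had 91.4 and 93.0, 66.0 and 52.4, and 58.3 and 84.7 CPM (0.64, SE 0.34, adjusted p = 1). KO bilirubin lay above both other groups in each gene, with overlap between the other groups.

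For WT bilirubin against WT vehicle, Asns and Ddit3 were the members with an unadjusted p under 0.05, both of the ATF4 arm. Asns had 4.02 and 3.45 CPM in WT bilirubin and 8.36 and 5.12 CPM in WT vehicle (-0.84, SE 0.34, edgeR adjusted p = 0.418). Ddit3 had 15.3 and 13.8 CPM in WT bilirubin and 28.3 and 23.1 CPM in WT vehicle (-0.82, SE 0.35, adjusted p = 0.426). Neither group overlapped in these genes, and in KO bilirubin Ddit3 had 14.6 and 28.6 CPM, over the range of both. Hsf1 had 15.6 and 11.7 CPM in WT bilirubin and 8.05 and 11.1 CPM in WT vehicle (0.51, SE 0.30, adjusted p = 0.546).

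The ER chaperones of choroid plexus-like cells turned on 1 library. Sdf2l1 had 176 and 141 CPM in KO bilirubin, 119 and 92.7 CPM in WT bilirubin, and 27.8 and 130 CPM in WT vehicle choroid plexus-like cells, and Manf had 576 and 574, 524 and 354, and 107 and 519 CPM. WT vehicle replicate 1 was lowest in both, as it was for Hspa5 and Hsp90b1. Without WT vehicle replicate 2, which leaves this library as the only control, Hspa5, Pdia4, Manf, Hsp90b1, Pdia6 and Sdf2l1 passed for WT bilirubin against WT vehicle in these cells, that is 6 of 29 members tested, where 4.7% of all genes passed. That fit takes the spread of the lone library from the other groups. With both control libraries 0 of them did.

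The ratio of ER to heat shock UMIs over all kept cells was -1.13 and -1.55 in KO bilirubin, -1.28 and -0.97 in WT bilirubin, and -1.36 and -1.20 in WT vehicle on the log2 scale. Group means were -1.34 ± 0.30, -1.13 ± 0.22 and -1.28 ± 0.11 (SD, n = 2), and the libraries of the groups overlapped. Within classes some groups did not overlap. In choroid plexus-like cells the ratio was -0.51 and -0.30 in WT bilirubin, against -1.27 and -0.70 in WT vehicle. In fibroblast-like cells it was -0.94 and -0.96 in KO bilirubin, -0.86 and -0.72 in WT bilirubin, and -0.77 and -0.72 in WT vehicle, so KO bilirubin lay below both other groups. KO bilirubin lay below WT vehicle in endothelial-like cells too (-2.09 and -1.91 against -1.53 and -1.84), below WT bilirubin in mural-like cells (-1.28 and -1.66 against -1.18 and -1.10), and above WT vehicle in oligodendrocyte-like cells (-1.68 and -1.66 against -1.78 and -1.76). The direction thus differed between classes, and none of these was tested.

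Over all kept cells, 0 of 25 other unfolded protein response genes, 0 of 17 other ATF4 targets and 0 of 29 other heat shock genes passed in any comparison with edgeR. At an unadjusted p under 0.05 there were 6 of the 29 heat shock genes for WT bilirubin against WT vehicle. Hspa2, an HSP70 gene, had 41.5 and 23.8 CPM in WT bilirubin and 11.9 and 14.6 CPM in WT vehicle (1.30, SE 0.33, edgeR adjusted p = 0.371), and Dnaja4 had 29.2 and 30.5 CPM against 13.1 and 19.3 CPM (0.88, SE 0.30, adjusted p = 0.379). For KO bilirubin against WT bilirubin the smallest p values of that list were those of Dnajb5 (0.67, SE 0.32) and Hspb6 (-0.92, SE 0.52), and of the unfolded protein response list those of Mbtps1 (-0.34, SE 0.28) and Derl2 (0.37, SE 0.36), all with an adjusted p of 1. Of that list in WT bilirubin against WT vehicle, Dnajc3 (0.77, SE 0.40) and Ppp1r15a (0.56, SE 0.31) came first, with adjusted p of 0.505 and 0.523. Of the ATF4 list, Gpt2 (-0.88, SE 0.29, adjusted p = 0.371) and Cth (1.03, SE 0.47, adjusted p = 0.455) came first in that comparison, and Mthfd2 (-0.45, SE 0.28) and Stc2 (-1.08, SE 0.73) in KO bilirubin against WT bilirubin, both with an adjusted p of 1. Of the 17 immediate-early genes 0 passed. Junb (1.05, SE 0.46, edgeR adjusted p = 0.444) and Ier3 (1.05, SE 0.63, adjusted p = 0.561) came first for WT bilirubin against WT vehicle. For KO bilirubin against WT bilirubin these were Ier3 (0.73, SE 0.63) and Klf2 (0.57, SE 0.51), both with an adjusted p of 1. Within classes 0 of the 17 passed either. At an unadjusted p under 0.05 in edgeR's test, WT bilirubin against WT vehicle had 9 in endothelial-like (median log2 fold change 0.99) and 8 in microglia-like cells (0.75). KO bilirubin against WT bilirubin had 7 in choroid plexus-like cells (1.01). The other classes had 0 to 2 in these comparisons. Of all gene and class pairs, 10.2% and 3.66% were under 0.05. Their part in the group differences was not tested.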

How the data were processed

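RNA of single mouse brain cells was captured with droplet 3' kits, per the labels. The authors deposited raw UMI counts per gene and barcode for each library, whole numbers that were not normalized, with Cell Ranger 9.0.1 named per the file headers. The submitters' processing notes name the builds mm10 and GRCm39 and the tools Scanpy 1.9.6 and Cell Ranger 8.0.0, with no role for each, and no gene coordinate from the files is used here. The deposited gene and barcode lists are names of another kind that carry no measurement, per the file headers.

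A barcode was kept with 500 UMIs and 300 genes or more and a mitochondrial share of 15% or less. Scrublet (scanpy 1.11.5, Python 3.11.15), run on each library alone, found the doublets, and 9192 were removed. In KO bilirubin replicate 2 the automatic threshold called 0, and the 182 highest scores, at the expected rate of 3.31%, were removed instead. A cell held a marker when its UMIs exceeded the number the library's mean share would give (Poisson tail under 0.05), and entered a class with at least 3 held markers and at least 2 times those of the next class. These gate thresholds were set after the cell numbers were seen.

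Counts were summed per library and class and tested with edgeR 4.0.16 (R 4.3.3; TMM scaling, filterByExpr, quasi-likelihood test, all 6 libraries in 1 fit with the group as the only term), with Benjamini-Hochberg adjustment over all genes of the fit. Classes were compared in 1 fit with the library as a block. DESeq2 1.42.0 was an alternative, with other scalings, filters, gates and left-out libraries. The test scripts were checked on simulated counts. Members and gene lists were chosen with earlier results of these data known. The genes named were those called between groups, the 2 ER and 2 heat shock members with the smallest p in each comparison over all kept cells, for each role the 2 members with the largest difference between class means, and of each other list the 2 genes with the smallest p for WT bilirubin against WT vehicle and for KO bilirubin against WT bilirubin. Other members named for a class were chosen after their values were seen.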

Additional observations from a re-analysis of the deposited data

Results flagged for a closer look

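In the cases below, every library of the first-named group lay above every library of the other in some classes and below it in another class. How often this occurs over all genes was not counted. With 2 libraries a group such splits can arise from order alone, so no result about the members is read from them. The difference between classes was not tested, and none of the values below passed the adjusted threshold of edgeR's test.

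Herpud1, of ER-associated degradation, moved apart in ependymal-like cells for WT bilirubin against WT vehicle. Its log2 fold change was -0.81 there, against 0.47 in microglia-like, 0.59 in endothelial-like, 0.40 in fibroblast-like, 0.52 in choroid plexus-like, 0.25 in astrocyte-like and 0.22 in oligodendrocyte-like cells. For KO bilirubin against WT bilirubin it was 0.89 in ependymal-like and 0.44 in choroid plexus-like cells and -0.38 in microglia-like cells.

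Hspa1b, of inducible HSP70, had a log2 fold change of 0.87 in endothelial-like and -0.52 in fibroblast-like cells for WT bilirubin against WT vehicle. For KO bilirubin against WT bilirubin, Atf4 had 0.47 in astrocyte-like cells, -0.62 in microglia-like cells and -0.43 in T or NK cell-like cells. In the same comparison Sdf2l1 had 1.29 in ependymal-like cells, 0.58 in both choroid plexus-like and oligodendrocyte-like cells, and -0.067 in microglia-like cells. For KO bilirubin against WT vehicle, Hsph1 had 0.50 in endothelial-like, 0.93 in fibroblast-like, 0.69 in ependymal-like, 0.68 in choroid plexus-like and 0.27 in astrocyte-like cells, and -0.17 in oligodendrocyte-like cells.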

How the results depend on the processing

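Between classes, 146 calls stood at 117 to 147 when 1 library was left out (117 without WT bilirubin replicate 1). Counts of calls between groups were 0 in the reported fits and moved as follows. Across classes, leaving out 1 library gave 0 to 7 calls for KO bilirubin against WT bilirubin (7 without WT bilirubin replicate 1), 0 to 2 for KO bilirubin against WT vehicle and 0 to 6 for WT bilirubin against WT vehicle (6 without WT vehicle replicate 2). With no filter on low counts they were 1, 3 and 0, and with only the 4 libraries compared 1, 2 and 0. With 1 more marker needed, KO bilirubin against WT vehicle had 1. Over all kept cells, KO bilirubin against WT vehicle had 1 with no filter and 1 with DESeq2, in both Hspb1. The shares of all genes called under these settings are not given here, so the counts are not read as results about the members. The cause was not tested.

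Same-numbered replicates did not deviate together over all kept cells (correlations of -0.183, -0.125 and 0.0493 in the same order), so the numbers were not taken to pair libraries. With the replicate number as a block, calls across classes were 1, 1 and 0, and with the KO numbers crossed, chosen after seeing the data, 3, 1 and 2. The share of all genes is not given for these counts either, and they are not read as results about the members.

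As mean log2 CPM per member, the ratio of ER to heat shock genes was -2.25 in KO bilirubin, -2.04 in WT bilirubin and -2.03 in WT vehicle. For WT bilirubin against WT vehicle, Hspb1 over all kept cells turned to -0.045 with the mitochondrial split as a term and to -0.12 without WT bilirubin replicate 1. With 1 library left out its range was -0.12 to 2.09. Hsf1 in ependymal-like cells turned to -0.11 with a looser gate. The mitochondrial split and the looser gate were added after seeing the data, and the split term rests on the WT bilirubin pair alone. Median-of-ratios scaling moved the median of all genes in choroid plexus-like cells by -0.13. With 2 libraries a group, small differences of low genes such as Trib3 and Chac1 could not be resolved.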
